A study of Mus musculus with 9 samples.

Results

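Molecular chaperones of the HSP90, HSP70 and HSP60 systems were followed in cultured mouse cardiac fibroblasts whose junctophilin-2 supply was manipulated by adenovirus. The set comprised 10 genes, taken by their symbols from a table of 56953 genes: Hsp90aa1, Hsp90ab1, Hspa8, Hspa4, Hspa4l, Hsph1, Dnaja1, Hspd1, Hspe1 and Hsf1. All 10 reached 1 TPM (transcripts of the gene per 1000000 transcripts, a level per length and per library) in at least 3 libraries and entered the fit across 14215 genes. The genes were chosen by their TPM in these 9 libraries, across all 3 groups. Their levels and differences are therefore given as a description, with standard errors and without p-values. Where the fit's calls on these genes are listed, they too are description and no test, since the same values chose the genes.

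There were 3 groups of 3 libraries, and every group was infected. Ad-JP2 cells received a virus for junctophilin-2 (JP2), Ad-shJP2 cells a virus for a short hairpin RNA against it, and Ad-GFP cells a virus for green fluorescent protein. All cells were primary fibroblasts from hearts of adult wildtype male C57BL/6N mice, exposed to virus for 2 h in serum-free medium and collected at 72 h. The sources used here name no promoter for the viral inserts, and do not state whether libraries came from separate cultures or animals. The p-values below therefore measure only the spread between these libraries, which may be technical. The comparisons ask how chaperone messages differ when JP2 is raised or targeted.

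HSP90 proteins are dimeric ATPases that finish the folding of kinases, receptors and other client proteins. They receive clients from the HSP70 system, in which J-domain proteins deliver the client and HSP110 proteins, encoded by Hspa4, Hspa4l and Hsph1, release ADP so that the cycle can restart. HSP60 and its lid HSP10, encoded by Hspd1 and Hspe1, form a folding chamber in the mitochondrial matrix, and HSF1 is the transcription factor that induces many chaperone genes in heat and proteotoxic stress. The set is thus not purely cytosolic, since Hspd1 and Hspe1 encode mitochondrial proteins, and HSF1 is no chaperone.

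Estimated depth was 36930000 to 41770000 reads in Ad-JP2, 21280000 to 33210000 in Ad-shJP2 and 40220000 to 45810000 in Ad-GFP, and 3 reads on 1000 bases came to between 0.0871 and 0.176 TPM. These limits cover counting error only. Jph2, the targeted gene, was at 737, 691 and 637 TPM in Ad-JP2, at 116.5, 123 and 119 TPM in Ad-shJP2 and at 132, 128 and 128 TPM in Ad-GFP. Its mean was 5.32 times the Ad-GFP mean in Ad-JP2, and 0.924 times in the libraries labelled Ad-shJP2, where the log2 difference was -0.11 (SE 0.05) and came to 0.00 with median-of-ratios scaling. Jph2 thus hardly separated Ad-shJP2 from Ad-GFP, and a direction in Ad-shJP2 is one of the library label. Summed TPM of 11 fibroblast markers was 11301 to 12056 in Ad-JP2, 7512 to 7746 in Ad-shJP2 and 11423 to 11529 in Ad-GFP. Vim made up most of that sum, averaging 7311, 5022 and 7263 TPM in Ad-JP2, Ad-shJP2 and Ad-GFP. Thy1 went the other way, averaging 141, 179 and 149 TPM in the same groups. The sum of 3 myofibroblast markers was 14463 to 14750 TPM in Ad-JP2, 17810 to 18211 TPM in Ad-shJP2 and 14987 to 15140 TPM in Ad-GFP. That of 10 macrophage and leukocyte markers was 2519 to 2560 TPM in Ad-JP2, 3187 to 3235 TPM in Ad-shJP2 and 2733 to 2772 TPM in Ad-GFP. Lyz2 made up most of it, averaging 1556, 2023 and 1730 TPM in Ad-JP2, Ad-shJP2 and Ad-GFP. In the same groups Mrc1 averaged 20.3, 1.97 and 8.16 TPM, Itgam 23.2, 12.3 and 20.9 TPM, and Ptprc 2.07, 0.240 and 0.592 TPM. By limma, 6 of the 10 were called higher and 3 lower in Ad-shJP2 against Ad-GFP. With a correction for GC content and length the counts were 3 and 3. Cardiomyocytes had been settled out before culture, and 7 cardiomyocyte markers summed to 26.6 to 32.6 TPM in Ad-JP2, 20.4 to 22.9 TPM in Ad-shJP2 and 31.4 to 33.3 TPM in Ad-GFP. Of 14 tested interferon response genes, 9 were called higher and 0 lower in Ad-JP2, and 13 higher and 1 lower in Ad-shJP2, both against Ad-GFP by limma. Over all genes 13.4% were called higher and 1.64% lower in Ad-JP2, and 21.8% higher and 37.7% lower in Ad-shJP2. No marker was at 0 in all libraries. Fewer cells of a type and less RNA per cell cannot be told apart in such bulk samples, and the part of these shifts in the chaperone levels was not tested.

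Several of these messages have processed pseudogenes, which are intronless copies of a messenger RNA inserted elsewhere in the genome. Of the 75-base stretches in the transcripts of a gene, 42.8% for Hsp90aa1, 32.8% for Hspa8, 29.6% for Hspd1, 11.9% for Hspe1 and 10.4% for Dnaja1 also occurred in a transcript of another gene. The shares were 0.537% for Hsp90ab1 and 0.085% for Hspa4l, and no stretch was shared for Hspa4, Hsph1 and Hsf1. The closest copies are shown because a read from them can hardly be told from a read of the parent gene. Each pair gives 90 coding bases in GENCODE M21 transcripts, from the gap-free stretch in which the copy differs most, with the differing bases in capitals. Hsp90aa1 on chromosome 12 is set beside Gm12346 on chromosome 11 (coding bases 164 to 253), Hspa8 on chromosome 9 beside Gm15459 on chromosome 5 (coding bases 25 to 114), and Hspd1 on chromosome 1 beside Hspd1-ps3 on chromosome 11 (coding bases 55 to 144).
Hsp90aa1: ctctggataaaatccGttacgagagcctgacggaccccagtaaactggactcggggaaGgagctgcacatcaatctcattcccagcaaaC
Gm12346: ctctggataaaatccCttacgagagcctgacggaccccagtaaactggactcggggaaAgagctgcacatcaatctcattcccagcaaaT
Hspa8: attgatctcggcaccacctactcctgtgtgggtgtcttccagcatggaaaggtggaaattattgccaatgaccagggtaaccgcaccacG
Gm15459: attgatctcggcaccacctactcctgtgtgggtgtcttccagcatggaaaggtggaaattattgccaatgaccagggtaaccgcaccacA
Hspd1: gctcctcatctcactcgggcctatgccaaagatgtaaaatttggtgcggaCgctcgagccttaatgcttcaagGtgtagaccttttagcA
Hspd1-ps3: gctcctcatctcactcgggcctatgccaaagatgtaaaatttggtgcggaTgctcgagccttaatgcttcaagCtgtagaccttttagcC
Even there the copies differed at 3, 1 and 3 bases. Over the whole coding sequence, Gm12346 matched Hsp90aa1 at 99.5% of 2202 aligned bases, Gm15459 matched Hspa8 at 99.7% of 1941, and Hspd1-ps3 matched Hspd1 at 98.95% of 1722. The longest run without a difference was 530, 672 and 431 bases long.

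HSF1 binds heat shock elements, inverted repeats of the unit GAA. Promoter windows from RefSeq (build GRCm38.p6, 250 bases before to 50 after a start site) were on hand for 6 of the 10 genes, namely Hspd1, Hspe1, Hspa4l, Dnaja1, Hsph1 and Hspa4. The windows were searched for TTCNNGAA and GAANNTTC. Each of these reads the same on both strands. Either motif occurred in 4 of the 6 genes (Hspd1, Hspe1, Dnaja1 and Hsph1), against 16.97% of 27025 genes with a window. Genes can have several windows, and counted by window it was 5 of 10 against 15.06% of 32851. A longer element, in which the first of these motifs and the second overlap by 3 bases in either order, occurred in 3 of the 6 and in 0.662% of all genes. Hspd1 and Hspe1 share the same element, so these counts hold it for both genes. Of 83 genes with a window in the wider chaperone lists below, 22 held either motif and 2 the longer element. The windows below are shown because that of Hspe1 overlaps a Hspd1 window, and because Hsph1 and Dnaja1 carry the motif; capitals mark the matches. The Hspe1 window is chr1:55087898-55088197 on the plus strand, that of Hsph1 is chr5:149636287-149636586 on the minus strand and that of Dnaja1 is chr4:40722218-40722517 on the plus strand.
Hspe1: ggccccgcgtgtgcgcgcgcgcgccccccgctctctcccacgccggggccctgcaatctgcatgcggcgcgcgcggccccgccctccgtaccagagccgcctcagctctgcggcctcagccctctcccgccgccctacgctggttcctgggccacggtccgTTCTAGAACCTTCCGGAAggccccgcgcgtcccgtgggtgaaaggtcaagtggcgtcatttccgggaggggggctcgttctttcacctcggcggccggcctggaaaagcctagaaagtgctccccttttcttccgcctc
Hsph1: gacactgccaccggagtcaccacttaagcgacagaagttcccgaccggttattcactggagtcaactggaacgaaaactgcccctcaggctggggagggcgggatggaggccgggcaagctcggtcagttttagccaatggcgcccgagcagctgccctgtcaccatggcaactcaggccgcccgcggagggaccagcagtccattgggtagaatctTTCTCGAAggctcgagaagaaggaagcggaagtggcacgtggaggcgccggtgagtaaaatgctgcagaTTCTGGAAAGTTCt
Dnaja1: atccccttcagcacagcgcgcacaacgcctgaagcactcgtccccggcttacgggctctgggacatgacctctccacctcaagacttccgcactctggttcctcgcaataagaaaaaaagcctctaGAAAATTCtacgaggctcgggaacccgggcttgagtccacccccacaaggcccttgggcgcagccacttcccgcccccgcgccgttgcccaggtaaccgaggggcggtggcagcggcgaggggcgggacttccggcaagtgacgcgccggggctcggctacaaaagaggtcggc
In Hspe1 the matches begin 89, 84 and 79 bases before the start site. Of the 2 Hspd1 windows, on the opposite strand, 1 (chr1:55087883-55088182) holds the same element, beginning 144 bases before its start, and the other (chr1:55088194-55088493) holds no match. The other 2 Dnaja1 windows hold none either. The Hspa4 and Hspa4l windows held no match, which says only that these letters are not in those windows.

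Hsp90aa1 (ENSMUSG00000021270, chr12:110690605-110702728, minus strand in GRCm38), the stress-inducible cytosolic HSP90 isoform, stood far apart in all 3 groups. It was at 178, 166 and 176 TPM in Ad-JP2, at 11.9, 13.4 and 16.4 TPM in Ad-shJP2 and at 38.2, 36.1 and 34.5 TPM in Ad-GFP. No library of any group came near those of another: the lowest Ad-JP2 library lay above the highest Ad-GFP library, and the highest Ad-shJP2 library below the lowest Ad-GFP library. The means were 174 ± 6.45 TPM in Ad-JP2, 13.9 ± 2.30 TPM in Ad-shJP2 and 36.3 ± 1.88 TPM in Ad-GFP (SD, n = 3 each). On the log2(TPM + 1) scale, which understates the change of low genes, the difference was 2.23 (SE 0.10) for Ad-JP2 against Ad-GFP and -1.33 (SE 0.10) for Ad-shJP2 against Ad-GFP. Both comparisons use the same Ad-GFP libraries. After each library was corrected for GC content and length the differences were 2.09 and -1.19. The Ad-JP2 mean was 12.5 times the Ad-shJP2 mean.

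Hsp90ab1 (ENSMUSG00000023944, chr17:45567775-45573271, minus strand), the constitutive isoform, was the most abundant of the 10 rows. With sharing rows added the Hspa8 sum was larger, at 1852 against 1261 TPM for Hsp90ab1 in Ad-JP2, 2123 against 1261 TPM in Ad-shJP2 and 1891 against 1276 TPM in Ad-GFP. Hsp90ab1 alone was at 1246, 1265 and 1244 TPM in Ad-JP2, at 1271, 1238 and 1246 TPM in Ad-shJP2 and at 1255, 1281 and 1261 TPM in Ad-GFP. The 3 groups overlapped, and the log2 differences from Ad-GFP were -0.02 in Ad-JP2 and -0.02 in Ad-shJP2 (SE 0.02 each). The sign of differences this small depended on the scaling: GC content and length correction gave 0.08 for Ad-JP2 and -0.14 for Ad-shJP2, whereas median-of-ratios scaling gave -0.04 for Ad-JP2 and 0.10 for Ad-shJP2. Hsp90aa1 accounted for 12.2 ± 0.493% of the TPM of both isoforms in Ad-JP2, 1.10 ± 0.188% in Ad-shJP2 and 2.78 ± 0.152% in Ad-GFP (SD, n = 3 each). Their summed TPM was 1425 ± 5.48 in Ad-JP2, 1266 ± 15.7 in Ad-shJP2 and 1302 ± 12.8 in Ad-GFP, so that the isoform mix differed more than the total. With the rows that share stretches with either gene added, the share was 17.9% in Ad-JP2, 2.07% in Ad-shJP2 and 4.84% in Ad-GFP.

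**Figure D1:**
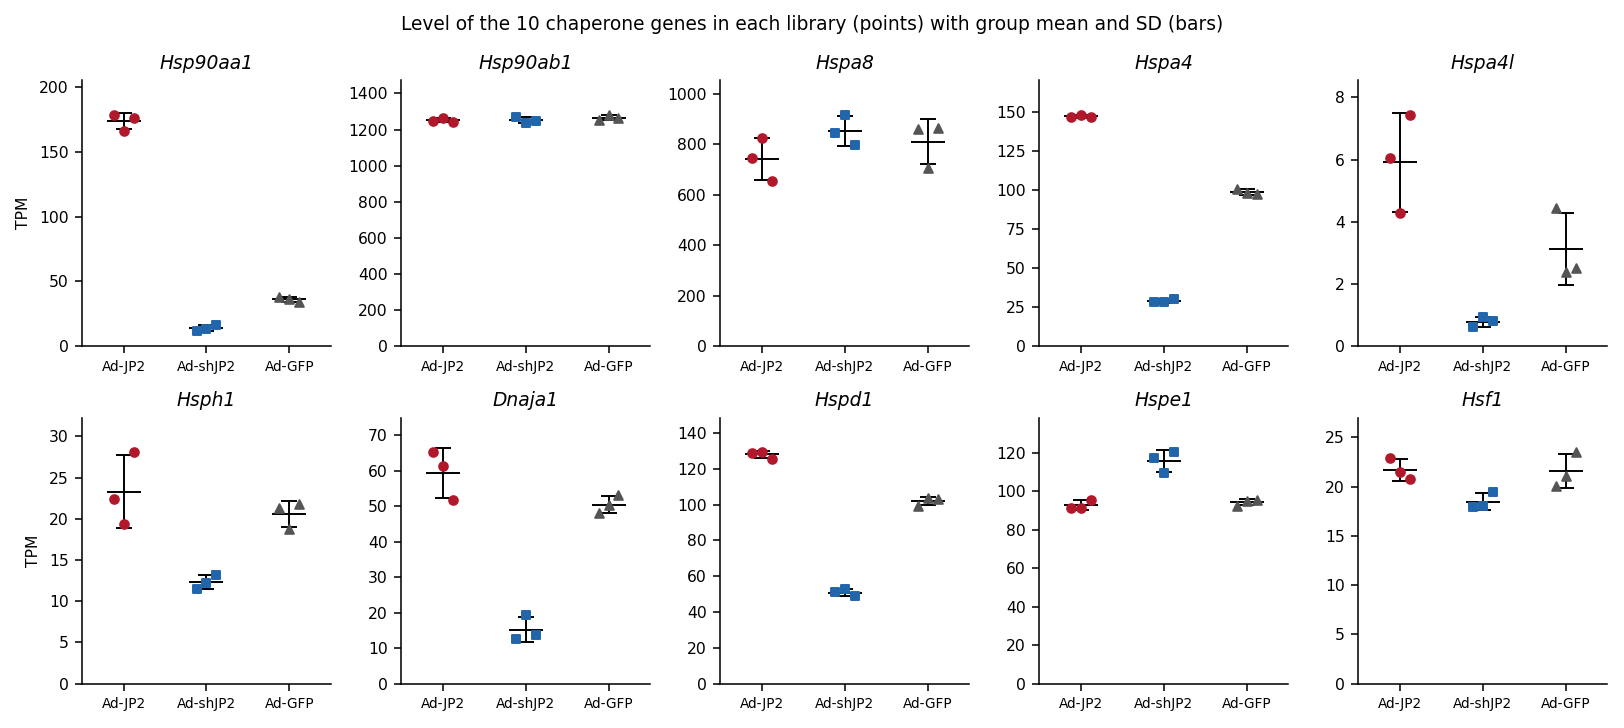
TPM of the 10 chaperone genes (y axis, linear from 0, one panel a gene) in the 3 libraries of Ad-JP2, Ad-shJP2 and Ad-GFP (x axis). Points are libraries, horizontal bars group means and whiskers SD; Hsp90aa1 separates all 3 groups (174, 13.9 and 36.3 TPM on average), while Hsp90ab1 lies between 1238 and 1281 TPM throughout.

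The HSP70 messages were dominated by Hspa8, and its partner genes differed more between groups. Hspa8 (ENSMUSG00000015656, chr9:40800984-40810087, plus strand), the constitutive cytosolic HSP70 (HSC70), was at 744, 824 and 656 TPM in Ad-JP2, at 843, 915 and 798 TPM in Ad-shJP2 and at 860.0, 706 and 862 TPM in Ad-GFP. These ranges overlapped in every pair of groups, and the log2 differences from Ad-GFP were -0.13 in Ad-JP2 and 0.08 in Ad-shJP2 (SE 0.10 each). Leaving out single libraries moved the Ad-JP2 value between -0.22 (without Ad-GFP replicate 2) and -0.04 (without Ad-JP2 replicate 3). Between Ad-JP2 and Ad-shJP2 the log2 difference was -0.21 (SE 0.10). It was -0.13 after quantile normalization, -0.27 after the GC content and length correction and -0.34 with median-of-ratios scaling.

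Hspa4 (ENSMUSG00000020361, chr11:53259814-53300457, minus strand), an HSP110 exchange factor for HSP70, had 3 separate groups. It was at 147, 148 and 147 TPM in Ad-JP2, at 28.6, 28.2 and 30.2 TPM in Ad-shJP2 and at 101, 98.4 and 97.6 TPM in Ad-GFP. The groups did not overlap, and the spread within each was small, with SDs of 0.863, 1.09 and 1.82 TPM. The log2 difference was 0.57 (SE 0.03) in Ad-JP2 and -1.74 (SE 0.03) in Ad-shJP2, both against Ad-GFP, with 0.51 and -1.62 after the GC content and length correction. Hspa4 shares no 75-base stretch with another gene.

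Hspa4l (ENSMUSG00000025757, chr3:40744495-40796103, plus strand), a scarcer HSP110 relative, was at 6.04, 4.27 and 7.44 TPM in Ad-JP2, at 0.627, 0.938 and 0.799 TPM in Ad-shJP2 and at 4.45, 2.39 and 2.51 TPM in Ad-GFP. The Ad-shJP2 libraries lay below all others, whereas the lowest Ad-JP2 library lay under the highest Ad-GFP library. Its log2 differences from Ad-GFP were 0.76 (SE 0.22) in Ad-JP2 and -1.17 (SE 0.22) in Ad-shJP2, and 0.41 and -0.79 after the GC content and length correction. Hspa4l had the lowest GC content of the 10 transcripts, 39.5%.

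Hsph1 (ENSMUSG00000029657, chr5:149614287-149636376, minus strand), the stress-inducible HSP110, was at 22.4, 19.3 and 28.1 TPM in Ad-JP2, at 11.5, 12.2 and 13.2 TPM in Ad-shJP2 and at 21.3, 18.8 and 21.8 TPM in Ad-GFP. Here Ad-JP2 and Ad-GFP overlapped, and Ad-shJP2 was lower than both. The log2 difference was 0.15 (SE 0.12) in Ad-JP2, falling to 0.02 without Ad-JP2 replicate 3, and -0.70 (SE 0.12) in Ad-shJP2.

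Summed over Hspa4, Hspa4l and Hsph1, the HSP110 messages came to 176 ± 5.40 TPM in Ad-JP2, 42.1 ± 1.87 TPM in Ad-shJP2 and 123 ± 3.68 TPM in Ad-GFP. The ratio of Hspa8 to this sum was 4.21 ± 0.601 in Ad-JP2, 20.3 ± 2.08 in Ad-shJP2 and 6.59 ± 0.613 in Ad-GFP (SD, n = 3 each). The Ad-shJP2 libraries, at 18.1 to 22.2, lay far above the others. Reads held by the Hspa8 copies are not in this ratio.

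Dnaja1 (ENSMUSG00000028410, chr4:40722150-40737149, plus strand), a class A J-domain protein that stimulates the HSP70 ATPase, was at 65.1, 61.2 and 51.6 TPM in Ad-JP2, at 12.6, 19.3 and 13.7 TPM in Ad-shJP2 and at 48.1, 50.2 and 53.0 TPM in Ad-GFP. Ad-JP2 replicate 3 fell within the Ad-GFP range, and all Ad-shJP2 libraries lay far below it. The log2 difference was -1.69 (SE 0.14) in Ad-shJP2, with -1.51 after the GC content and length correction. In Ad-JP2 it was 0.22 (SE 0.14), with 0.04 after it.

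**Figure D2:**
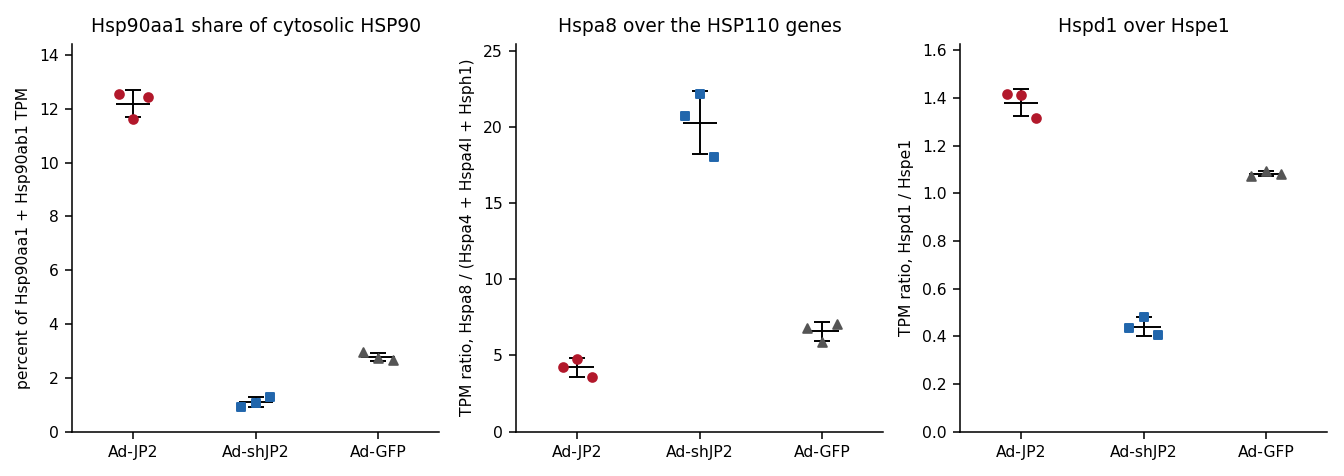
Left, Hsp90aa1 as a percent of Hsp90aa1 plus Hsp90ab1 TPM; middle, Hspa8 over the summed TPM of Hspa4, Hspa4l and Hsph1; right, Hspd1 over Hspe1, each in the 3 libraries of Ad-JP2, Ad-shJP2 and Ad-GFP. Points are libraries, bars means and whiskers SD; in all 3 panels the Ad-shJP2 libraries lie on the other side of Ad-GFP from the Ad-JP2 libraries.

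The chaperonin pair, whose genes start from the same stretch of chromosome 1, differed in the order of the groups. Hspd1 (ENSMUSG00000025980, chr1:55077835-55088243, minus strand) was at 129, 129 and 126 TPM in Ad-JP2, at 51.1, 52.7 and 48.7 TPM in Ad-shJP2 and at 99.4, 104 and 103 TPM in Ad-GFP. The groups did not overlap, with log2 differences from Ad-GFP of 0.32 in Ad-JP2 and -0.99 in Ad-shJP2 (SE 0.04 each), which the GC content and length correction left at 0.33 and -0.97. Hspe1 (ENSMUSG00000073676, chr1:55088132-55091307, plus strand) was at 91.2, 91.5 and 95.6 TPM in Ad-JP2, at 117, 109 and 120.1 TPM in Ad-shJP2 and at 92.5, 94.8 and 95.4 TPM in Ad-GFP. Unlike its partner it was highest in Ad-shJP2, above every other library, and overlapped between Ad-JP2 and Ad-GFP. Its log2 differences were -0.02 in Ad-JP2 and 0.29 in Ad-shJP2 (SE 0.04 each). The ratio of Hspd1 to Hspe1 was 1.38 ± 0.0568 in Ad-JP2, 0.441 ± 0.0383 in Ad-shJP2 and 1.08 ± 0.00930 in Ad-GFP (SD, n = 3 each). The 3 groups did not overlap in this ratio either.

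Hsf1 (ENSMUSG00000022556, chr15:76477422-76501913, plus strand) varied little. It was at 22.9, 21.5 and 20.7 TPM in Ad-JP2, at 17.9, 18.02 and 19.5 TPM in Ad-shJP2 and at 20.1, 21.1 and 23.5 TPM in Ad-GFP. Ad-JP2 and Ad-GFP overlapped, and Ad-shJP2 lay just below both, with a log2 difference of -0.21 (SE 0.07) from Ad-GFP. With median-of-ratios scaling that value was -0.10, and with quantile normalization -0.08, whereas the GC content and length correction gave -0.46. HSF1 activity is set mainly by the protein's release from chaperones, its trimerization and its modification, which message levels do not measure.

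Read over the whole set, the calls below are a description and do not test the genes, which the same libraries chose. Here 4 of the 10 genes passed limma's adjusted p of 0.05 in Ad-JP2 against Ad-GFP, all higher (Hsp90aa1, Hspa4, Hspa4l and Hspd1). Over all genes 15.0% passed, 13.4% higher and 1.64% lower. In Ad-shJP2 against Ad-GFP, 7 genes passed as lower (Hsp90aa1, Hspa4, Hspa4l, Hsph1, Dnaja1, Hspd1 and Hsf1) and 1 as higher (Hspe1), where 59.4% of all genes passed, 21.8% higher and 37.7% lower. In Ad-JP2 against Ad-shJP2 the same 7 passed as higher and Hspe1 as lower, where 64.4% of all genes passed, 40.3% higher and 24.1% lower. Set directly against Ad-shJP2, Ad-JP2 was higher by a log2 difference of 3.56 in Hsp90aa1, 2.31 in Hspa4, 1.93 in Hspa4l, 1.91 in Dnaja1, 1.32 in Hspd1, 0.85 in Hsph1 and 0.22 in Hsf1, and the value was -0.31 in Hspe1. The Hspa4l call in Ad-JP2 ended with median-of-ratios scaling, quantile normalization and the GC content and length correction, and the last of these called Hsp90ab1 higher. With sharing rows added Dnaja1 was called higher in Ad-JP2 and Hspa8 higher in Ad-shJP2. In both comparisons with Ad-shJP2 the Hsf1 call ended with quantile normalization and median-of-ratios scaling. Hsp90ab1 was called higher in Ad-shJP2 than in Ad-GFP with median-of-ratios scaling and lower with the GC content and length correction. Since the same contrasts chose the genes, nothing is read from the counts or from the single calls. The median log2 difference of the 10 was 0.19 against 0.01 over all genes in Ad-JP2, -0.84 against -0.11 in Ad-shJP2, and 1.08 against 0.10 between Ad-JP2 and Ad-shJP2. The same choice of genes favors such gaps, so nothing is read from these medians either. Summed TPM of the 10 genes moved less, at 2644 ± 89.3 in Ad-JP2, 2360 ± 50.5 in Ad-shJP2 and 2502 ± 78.8 in Ad-GFP, because Hsp90ab1 and Hspa8 made up most of it.

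**Figure D3:**
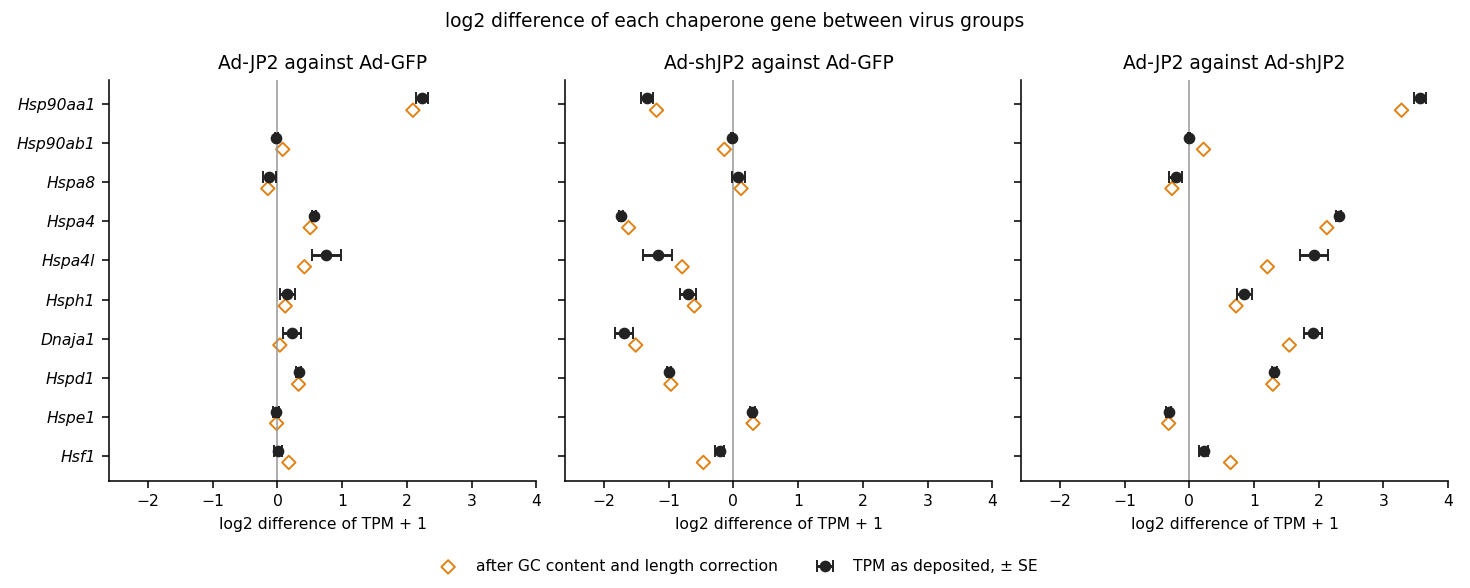
log2 difference of TPM + 1 (x axis) for each of the 10 genes (y axis) in Ad-JP2 against Ad-GFP, Ad-shJP2 against Ad-GFP and Ad-JP2 against Ad-shJP2. Filled circles are the deposited TPM with the limma SE and open diamonds the values after GC content and length correction; Hsp90aa1 runs from -1.33 in Ad-shJP2 to 2.23 in Ad-JP2, and Hspe1 lies to the right of 0 in the middle panel at 0.29.

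The deposited table gave the pseudogenes rows of their own, and some held as much as their parents. The sources used here do not say how reads that fit several genes were shared out. Gm12346 averaged 77.4 TPM in Ad-JP2, 9.81 TPM in Ad-shJP2 and 21.2 TPM in Ad-GFP, in the same order as Hsp90aa1. With Gm12346, Gm5844 and Gm5511 added, Hsp90aa1 came to 275 ± 5.61, 26.6 ± 3.13 and 65.0 ± 2.29 TPM in Ad-JP2, Ad-shJP2 and Ad-GFP, and its Ad-JP2 to Ad-GFP ratio was 4.24 in place of 4.79.

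Gm15459 exceeded its parent Hspa8, at 987 TPM in Ad-JP2, 1123 TPM in Ad-shJP2 and 958 TPM in Ad-GFP. The sum of Hspa8 and the rows sharing stretches with it was 1852 ± 74.2 TPM in Ad-JP2, 2123 ± 16.2 TPM in Ad-shJP2 and 1891 ± 77.6 TPM in Ad-GFP. The absolute level of Hspa8 therefore depends on how these rows are counted, and about 60.0% of the Ad-JP2 sum lay outside the Hspa8 row.

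Hspd1-ps3 was the named copy with the most signal among 5 Hspd1 pseudogenes, the other 4 being listed at 0 in all libraries. It was at 71.7, 75.8 and 80.1 TPM in Ad-JP2, at 31.5, 30.8 and 30.2 TPM in Ad-shJP2 and at 56.6, 60.7 and 56.5 TPM in Ad-GFP. Its groups kept the order of Hspd1 and did not overlap, and with the sharing rows added Hspd1 came to 249 ± 3.99, 98.1 ± 7.18 and 195 ± 8.12 TPM in Ad-JP2, Ad-shJP2 and Ad-GFP.

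The rows Hspe1-ps1, Hspe1-ps2 and Hspe1-ps3 never exceeded 0.285 TPM, and Hspe1-ps4, Hspe1-ps5 and Hspe1-ps6 were listed at 0 throughout. Dnaja1-ps was listed at 0 as well, but Gm15542 and Gm7816 carried Dnaja1 stretches. With its sharing rows Dnaja1 came to 164 ± 1.86 TPM in Ad-JP2, 39.7 ± 2.45 TPM in Ad-shJP2 and 131 ± 2.33 TPM in Ad-GFP. The libraries then spread less than in the Dnaja1 row alone (SD 6.95, 3.61 and 2.46 TPM), and the log2 difference of Ad-JP2 from Ad-GFP was 0.32 in place of 0.22.

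**Figure D4:**
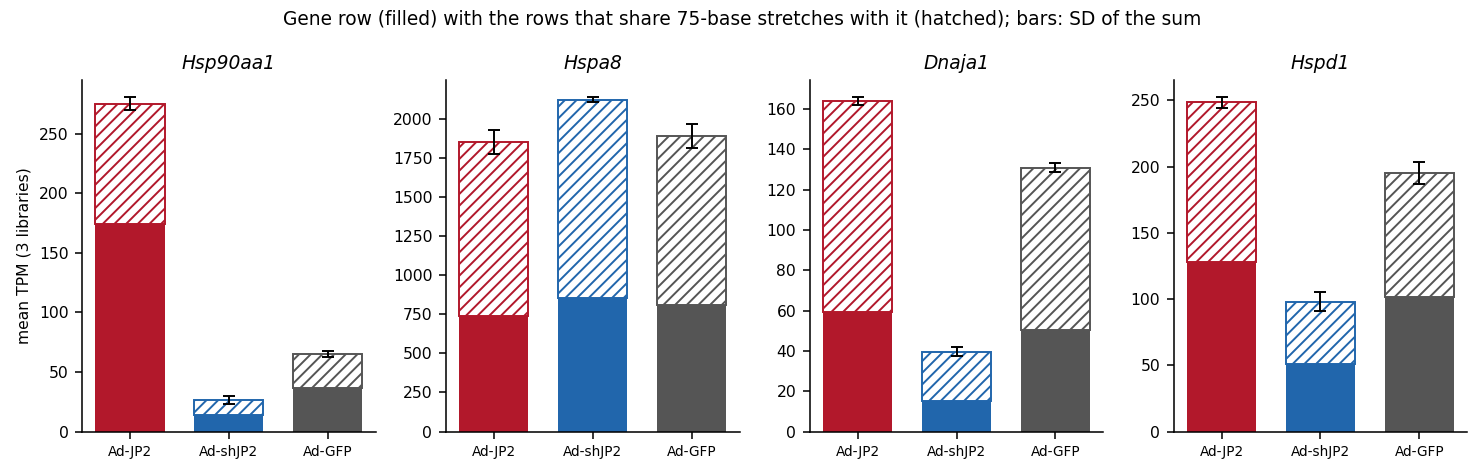
Mean TPM (y axis, linear from 0) of Hsp90aa1, Hspa8, Dnaja1 and Hspd1 in Ad-JP2, Ad-shJP2 and Ad-GFP (x axis), with the gene's own row filled and the rows that share 75-base stretches with it hatched on top. Whiskers are the SD of the sum over 3 libraries; the order of the group means is the same with and without the added rows in all 4 panels, and the added rows make up most of the Hspa8 and Dnaja1 sums.

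Among 8616 genes with a mean of at least 5 TPM and a proper symbol, the patterns most like that of Hsp90aa1 over the 9 libraries included those of Ccng1 (Pearson r of log2(TPM + 1) 0.998), Esyt2 (0.998), Elf1 (0.997) and Nes (0.995). The 9 libraries form 3 groups, so such an r mainly reflects the order and spacing of 3 group means. Ccng1 was at 207 TPM in Ad-JP2, 63.8 TPM in Ad-shJP2 and 97.3 TPM in Ad-GFP, and Esyt2 at 38.2 TPM in Ad-JP2, 8.56 TPM in Ad-shJP2 and 15.7 TPM in Ad-GFP. Among the other ranked chaperones of the set, Hspa4 (0.908, rank 846 of 8616) and Hspd1 (0.902, rank 913) were nearest. Hsp90ab1 (-0.119), Hspa8 (-0.593) and Hspe1 (-0.787) were farthest. Hspa4l, with a mean under 5 TPM, was not ranked. Outside the set, Hsp90b1 had an r of 0.977 (rank 129).

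The wider folding machinery was described by 9 lists with 100 genes outside the set, 96 of which were tested. These lists too were chosen with earlier results of these data known, and many named genes for their large called difference. Their counts and adjusted p-values are therefore description as well and no independent test. By limma, 18 were called higher and 1 lower in Ad-JP2 against Ad-GFP, where 13.4% of all genes were higher and 1.64% lower. In Ad-shJP2 against Ad-GFP 29 were higher and 39 lower, where 21.8% of all genes were higher and 37.7% lower. In Ad-JP2 against Ad-shJP2 44 were higher and 30 lower, where 40.3% of all genes were higher and 24.1% lower. In either direction 19.8%, 70.8% and 77.1% of the 96 were called in the 3 comparisons, beside 15.0%, 59.4% and 64.4% of all genes. These splits depended on the scaling: in Ad-shJP2 they were 36 and 32 with median-of-ratios scaling and 34 and 30 with quantile normalization. Between Ad-JP2 and Ad-shJP2 they were 37 and 39, 33 and 40, and, with the GC content and length correction, 53 and 20. The splits over all genes shifted likewise, in Ad-shJP2 being 3093 higher and 5353 lower as deposited and 4157 and 4333 with median-of-ratios scaling. The median over the 96 genes was 0.00, -0.09 and 0.12 in the 3 comparisons, beside 0.01, -0.11 and 0.10 over all genes. For each list below, the shares over all genes are 13.4% higher and 1.64% lower in Ad-JP2, and 21.8% higher and 37.7% lower in Ad-shJP2.

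HSP90 co-chaperones, which load clients or tune the ATPase, showed 3 higher and 0 lower of 22 tested in Ad-JP2 and 9 higher and 5 lower in Ad-shJP2, both against Ad-GFP. Chordc1 had means of 28.5 ± 3.11 TPM in Ad-JP2, 6.74 ± 0.725 TPM in Ad-shJP2 and 18.8 ± 1.26 TPM in Ad-GFP. It rose by a log2 difference of 0.57 in Ad-JP2 (limma adjusted p = 0.0032), a call that ended with the GC content and length correction (0.27, limma adjusted p = 0.11), and it fell by 1.36 in Ad-shJP2 (limma adjusted p = 2.7e-06). Cacybp rose in Ad-JP2 as well (0.61, limma adjusted p = 0.00053). Ppp5c, a phosphatase docked on HSP90, and Fkbp5, an immunophilin of steroid receptor complexes, rose in Ad-shJP2 by 0.76 (limma adjusted p = 4.3e-05) and 0.57 (limma adjusted p = 8e-05). Ahsa1, the activator of the HSP90 ATPase, was at 88.0 ± 4.53 TPM in Ad-JP2, 130.0 ± 4.06 TPM in Ad-shJP2 and 92.2 ± 4.93 TPM in Ad-GFP. It was lower in Ad-JP2 than in Ad-shJP2 (-0.56, limma adjusted p = 9.5e-06) and rose in Ad-shJP2 against Ad-GFP (0.49, limma adjusted p = 3.1e-05), and the difference of Ad-JP2 from Ad-GFP was -0.07 (limma adjusted p = 0.47). The list's median was 0.10 in Ad-shJP2, beside -0.11 over all genes.

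Of 17 tested J-domain genes, 5 were higher and 0 lower in Ad-JP2, and 2 higher and 11 lower in Ad-shJP2. Dnajb4, a class B J-domain protein, had 51.9 ± 2.24 TPM in Ad-JP2, 16.8 ± 0.525 TPM in Ad-shJP2 and 32.6 ± 1.40 TPM in Ad-GFP. It rose by 0.65 in Ad-JP2 (limma adjusted p = 3.5e-05) and fell by 0.92 in Ad-shJP2 (limma adjusted p = 5e-07). Dnajc2, which acts on ribosomes, rose by 1.01 in Ad-JP2 (limma adjusted p = 0.0039) and fell by 0.75 in Ad-shJP2 (limma adjusted p = 0.005). Dnajb1, a textbook HSF1 target, was at 34.2 ± 0.397 TPM in Ad-JP2, 49.2 ± 0.704 TPM in Ad-shJP2 and 35.5 ± 0.299 TPM in Ad-GFP. It rose in Ad-shJP2 (0.46, limma adjusted p = 2.2e-06), while the value in Ad-JP2 was -0.05 (limma adjusted p = 0.35). Dnajc9, a histone co-chaperone, rose most of the list in Ad-shJP2, by 1.35 (limma adjusted p = 7.3e-08).

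The stress-inducible HSP70 genes gave no call in Ad-JP2. Hspa1b was at 20.5 ± 1.16 TPM in Ad-JP2, 18.2 ± 0.720 TPM in Ad-shJP2 and 20.6 ± 0.707 TPM in Ad-GFP, and Hspa1a at 3.54 ± 0.138, 2.75 ± 0.351 and 3.71 ± 0.433 TPM. Neither passed in Ad-JP2 against Ad-GFP (limma adjusted p = 0.96 and 0.83). Both passed as lower in Ad-shJP2 (limma adjusted p = 0.027 and 0.019), calls that held with the GC content and length correction (-0.31 with limma adjusted p = 0.00093 for Hspa1b, -0.44 with limma adjusted p = 0.0038 for Hspa1a) and ended under both quantile normalization and median-of-ratios scaling. They also ended without any of 4 single libraries for Hspa1b (Ad-shJP2 replicates 1 and 2, Ad-GFP replicates 1 and 3; log2 difference -0.16 to -0.15 beside -0.17, limma adjusted p = 0.066 to 0.085) and without any of 3 for Hspa1a (Ad-shJP2 replicates 1 and 3, Ad-GFP replicate 2; log2 difference -0.31 to -0.25 beside -0.33, limma adjusted p = 0.053 to 0.07). Hspa1a and Hspa1b are near-identical copies, so reads may be split between them. Of the 6 tested genes in this list 0 passed in Ad-JP2 and 5 were lower in Ad-shJP2.

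Among 7 exchange factors of the BAG family and their kin, Bag4 rose in Ad-JP2 (0.71, limma adjusted p = 0.0092), which ended with the GC content and length correction (0.42, limma adjusted p = 0.078). Bag1 passed as lower by a narrow margin (-0.09, limma adjusted p = 0.048) and turned to 0.10 with that correction. Bag3, which couples HSP70 to autophagy, was at 103 ± 2.85 TPM in Ad-JP2, 72.6 ± 1.86 TPM in Ad-shJP2 and 99.7 ± 1.53 TPM in Ad-GFP. It fell in Ad-shJP2 by 0.45 (limma adjusted p = 3e-06). Altogether 1 rose and 1 fell in Ad-JP2, and 4 rose and 2 fell in Ad-shJP2, where the GC content and length correction left 1 higher and 3 lower.

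Small heat shock proteins, ATP-independent holdases, showed no call among 6 tested in Ad-JP2 (median GC content 56.2%), and 1 higher and 3 lower in Ad-shJP2. With the GC content and length correction 4 were higher in Ad-JP2, and 1 higher and 5 lower in Ad-shJP2. Cryab (alpha B-crystallin) was at 566 ± 14.5 TPM in Ad-JP2, 441 ± 11.4 TPM in Ad-shJP2 and 598 ± 7.65 TPM in Ad-GFP, and it fell in Ad-shJP2 by 0.44 (limma adjusted p = 1.2e-06). Hspb8, the partner of Bag3, rose in Ad-shJP2 by 0.37 (limma adjusted p = 4.5e-06). Hspb1 differed little from Ad-GFP, by -0.09 in Ad-JP2 (limma adjusted p = 0.092) and 0.03 in Ad-shJP2 (limma adjusted p = 0.48). With the GC content and length correction these turned to 0.12 and -0.30, and its transcript has a GC content of 61.7%.

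In mitochondria, where HSP60 and HSP10 act, 1 of 11 other chaperones and proteases was higher and 0 lower in Ad-JP2, and 6 were higher and 2 lower in Ad-shJP2. Lonp1, the matrix protease, was at 42.6 ± 0.304 TPM in Ad-JP2, 77.7 ± 2.08 TPM in Ad-shJP2 and 44.4 ± 1.33 TPM in Ad-GFP, and it rose in Ad-shJP2 by 0.79 (limma adjusted p = 1.6e-07). Clpx, the unfoldase of a second matrix protease, took the order of Hspd1, with 10.2 ± 0.795, 3.86 ± 0.270 and 6.91 ± 0.523 TPM in Ad-JP2, Ad-shJP2 and Ad-GFP. Trap1, the mitochondrial HSP90, did not pass in Ad-JP2 (0.01, limma adjusted p = 0.95) and rose in Ad-shJP2 by 0.30 (limma adjusted p = 0.0002).

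The cytosolic chaperonin CCT, which folds actin and tubulin, and its client loader prefoldin had 1 higher and 0 lower of 14 in Ad-JP2 and 6 higher and 3 lower in Ad-shJP2. Cct5 was at 295 ± 4.04 TPM in Ad-JP2, 412 ± 9.90 TPM in Ad-shJP2 and 297 ± 7.35 TPM in Ad-GFP, and it rose in Ad-shJP2 by 0.47 (limma adjusted p = 8.2e-07), as did Cct3 and Cct7 by 0.46 and 0.42. Vbp1, a prefoldin subunit, took the order of Hsp90aa1, with 27.6 ± 2.52, 5.13 ± 0.329 and 16.3 ± 1.32 TPM, and its transcript has a GC content of 35.5%.

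Among 9 other heat shock factors and regulators of HSF1, 4 were higher and 0 lower in Ad-JP2, and 1 higher and 4 lower in Ad-shJP2. Ep300, an acetyltransferase that acts on HSF1, was at 9.26 ± 0.4998 TPM in Ad-JP2, 1.82 ± 0.377 TPM in Ad-shJP2 and 4.22 ± 0.119 TPM in Ad-GFP. It rose by 0.97 in Ad-JP2 (limma adjusted p = 0.00021) and fell by 0.90 in Ad-shJP2 (limma adjusted p = 5.7e-05).

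Of the 4 endoplasmic reticulum relatives of HSP90 and HSP70, Hsp90b1, Hspa5 and Hspa13 had their group means in the order of Hsp90aa1, while Hyou1 was at 72.3 ± 2.95 TPM in Ad-JP2, 49.7 ± 2.21 TPM in Ad-shJP2 and 72.8 ± 1.64 TPM in Ad-GFP. Hsp90b1, the HSP90 of that compartment (GRP94), was at 174 ± 10.7 TPM in Ad-JP2, 16.3 ± 0.774 TPM in Ad-shJP2 and 59.2 ± 1.53 TPM in Ad-GFP. Its log2 differences from Ad-GFP were 1.54 (limma adjusted p = 7.6e-07) in Ad-JP2 and -1.80 (limma adjusted p = 1.3e-08) in Ad-shJP2, and 1.26 and -1.48 after the GC content and length correction. Hspa5, the HSP70 of the compartment (BiP), was at 548 ± 12.01, 171 ± 8.19 and 426 ± 2.39 TPM in Ad-JP2, Ad-shJP2 and Ad-GFP. Of the 4 genes in this list 3 rose in Ad-JP2, and 4 fell in Ad-shJP2, where Hyou1 fell by 0.54 (limma adjusted p = 6.1e-06). The fall of Hspa13, -0.42 in Ad-shJP2, went to 0.035 with the GC content and length correction.

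**Figure D5:**
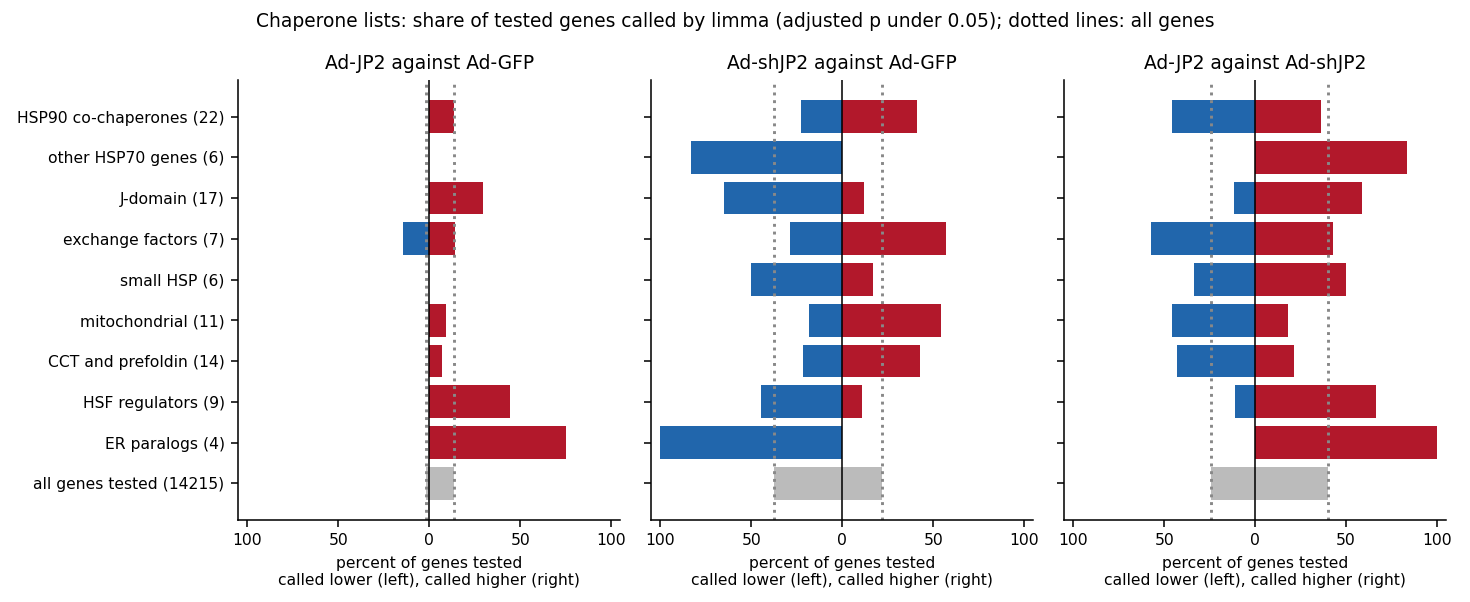
Percent of tested genes called higher (red, to the right) or lower (blue, to the left) by limma in each chaperone list (y axis, number tested in parentheses) for Ad-JP2 against Ad-GFP, Ad-shJP2 against Ad-GFP and Ad-JP2 against Ad-shJP2. Grey bars and dotted lines give the share over all 14215 genes; all 4 endoplasmic reticulum relatives are lower in Ad-shJP2, and 9 of 22 HSP90 co-chaperones are higher there.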

How the data were processed

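Libraries were polyA RNA, prepared with a stranded kit per the labels' protocols. DRAGEN, Salmon and DESeq2 are listed, with the build GRCm39, by the submitters' processing notes, which give neither their roles nor versions. The deposited values are TPM per gene, each library summing to 1000000, with a deposited gene length and effective length in bases. Genes with at least 1 TPM in at least 3 libraries (14215) were tested as log2(TPM + 1) by limma 3.58.1 (R 4.3.3), with 3 group means, a mean-variance trend and two-sided Benjamini-Hochberg adjustment over all of them; an adjusted p under 0.05 was a call. An exact permutation test of 3 against 3 libraries cannot go below 0.1.

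The members and all lists were chosen with earlier results of these data known. List genes named were up to 4 per list and comparison with the largest called difference and a mean of at least 5 TPM, the other HSP90 genes, Hspa1a, Hspa1b, Dnajb1, Bag3 and Hspb1; not all are printed, and some items are not reported here. Sequences, GC content and shared stretches came from GENCODE M21 and RefSeq on GRCm38, not the files' build. Library depth was estimated from the steps of low values; 95.8% of low values of Ad-GFP replicate 3 lay within 0.1 of a whole read, and 41.8% to 60.6% in the others, so depths are approximate. GC content and length were corrected per library by splines with 5 degrees of freedom on the 14025 genes with a GC value. The fits were tested on simulated data, where they missed more of the smaller changes than of the larger ones, so a missing call does not show an equal level. A first pass mark for that test was not met and was replaced. The simulation used independent noise and changed few genes, in Ad-JP2 only. It therefore does not show how calls fare under the broad differences seen here.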

Additional observations from a re-analysis of the deposited data

How the results depend on the processing

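Scaling set the direction of small differences. The median log2 difference over all genes was 0.01, -0.11 and 0.10 in Ad-JP2 against Ad-GFP, Ad-shJP2 against Ad-GFP and Ad-JP2 against Ad-shJP2, -0.01, -0.02 and -0.01 with median-of-ratios scaling, -0.06, 0.02 and -0.11 after quantile normalization, and 0.07, -0.15 and 0.23 with GC content and length correction. Calls in Ad-JP2 against Ad-GFP went from 19 list genes to 32 with that correction, and from 2135 of all genes to 2702. A mean of at least 5 TPM left 9814 genes to test, of which 1393 were called. Over all genes, quantile normalization gave 1462 higher and 748 lower. Between Ad-JP2 and Ad-shJP2, with median-of-ratios scaling 4735 genes were higher and 4634 lower, quantile normalization gave 4026 and 5570, and the correction gave 6812 and 2502; in Ad-shJP2 quantile normalization gave 4233 and 3849. With rows sharing stretches added, an alternative chosen after seeing the data, the Hsp90aa1 share was 17.9%, 2.07% and 4.84% in Ad-JP2, Ad-shJP2 and Ad-GFP. Among the named list genes called with or without the correction, the differences that changed sign with it, with or without the replicate block, were Bag1 (0.10) and Hspb1 (0.12) in Ad-JP2, Hspb1 (-0.30) and Hspa13 (0.0345) in Ad-shJP2, and Hspbp1 (0.034), Hspb8 (0.022), Hspb1 (0.42) and Hsf2 (-0.18) between Ad-JP2 and Ad-shJP2, where quantile normalization also turned Hspa1b (-0.068) and Hspa1a (-0.15). Hsp90ab1 turned to 0.08 in Ad-JP2 and 0.22 between Ad-JP2 and Ad-shJP2. The cause was not tested. Leaving out each library gave 16 to 19, 62 to 70 and 71 to 75 list genes, 1648 to 2260, 7701 to 8502 and 8560 to 8993 of all genes, and Hsp90aa1 shares of 12.03% to 12.5%, 0.999% to 1.18% and 2.70% to 2.85%. Deviations of same-numbered libraries from their group means correlated at -0.113 to 0.110, and those of differently numbered libraries at -0.1955 to 0.155. Same-numbered libraries thus did not stand out, but deviations from means of 3 libraries cannot exclude a pairing. A replicate block gave 19, 66 and 74 list genes and 1929, 8226 and 9009 of all genes. At 21280000 to 45810000 reads, Hspa4l in Ad-shJP2 is the member nearest the depth limit.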
